A study of Caenorhabditis elegans with 8 samples.

Results

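A gene count table from Caenorhabditis elegans larvae holds 6 rows for the actin genes act-1, act-2, act-3 and act-4 and for T04C12.30 and T04C12.26. The last 2 are non-coding genes annotated inside act-1 and act-3, each on the other strand. Members were chosen by name, and make up 6 of its 45461 rows. The worms were L2 larvae of the N2 background carrying jrIs2, in which the rpl-17 promoter drives Grx1-roGFP2, a fluorescent sensor of the glutathione redox state. Both groups carried this sensor and were grown at 20 °C on plates with live E. coli OP50. One group was labelled oxidized and the other reduced, with 4 libraries each (replicates 1, 2, 3 and 5) and about 10000 worms per replicate, so each library is a pool of whole animals. For replicate 5 a second label names the opposite state, and values without it are given below. In bulk samples, fewer cells of a type and less RNA per cell cannot be told apart.

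Actin is the globular protein that assembles into filaments. In muscle these thin filaments slide past myosin, and in every cell they shape the cortex and carry transport. The worm genes act-1, act-2 and act-3 lie in a cluster, where mutations are known to disrupt the thin filaments of body wall muscle. The act-4 gene lies apart and is also used in muscle, while act-5 builds the microvilli of the intestine. The coding sequences of act-1 to act-4 are nearly identical, so the authors' mapping could split or drop reads among these genes. The level of any single actin row is therefore uncertain. T04C12.30 and T04C12.26 lie inside such coding sequence, so their levels are uncertain in the same way. Sequences of the genes were not used here.

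In the WBcel235 annotation of Ensembl, act-1 (row T04C12.6) spans chromosome V 11081052 to 11082415 on the plus strand. The act-2 gene (T04C12.5) spans 11076777 to 11078154 and act-3 (T04C12.4) spans 11071690 to 11074498, both on the minus strand. The act-4 gene (M03F4.2) spans chromosome X 4960621 to 4964413 on the plus strand. No source used here names the authors' own build. T04C12.30 spans chromosome V 11081085 to 11081234 on the minus strand, and all 150 of its bases lie in coding exon 1 of act-1. T04C12.26 spans 11072253 to 11072402 on the plus strand, and all 150 of its bases lie in coding exon 2 of act-3. Both are single exons and touch no untranslated part of their host. They face 11.9% of the exon bases of act-1 and 9.63% of those of act-3.

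A further pair of rows lies opposite actin genes and is given for comparison, although they are no members. T04C12.17 is a non-coding gene of 170 bases at chromosome V 11073006 to 11073175. It covers 122 bases of coding exon 1 of act-3 and 48 bases of the intron beside it. Reads in its coding part meet the same limit of mapping as the actin rows. M03F4.6, a protein-coding gene of 11 exons at chromosome X 4964413 to 4969328, runs towards act-4 from the other side, and their last exons share 1 base. No row of the table shares an exon base with act-2 on the other strand.

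**Figure D1:**
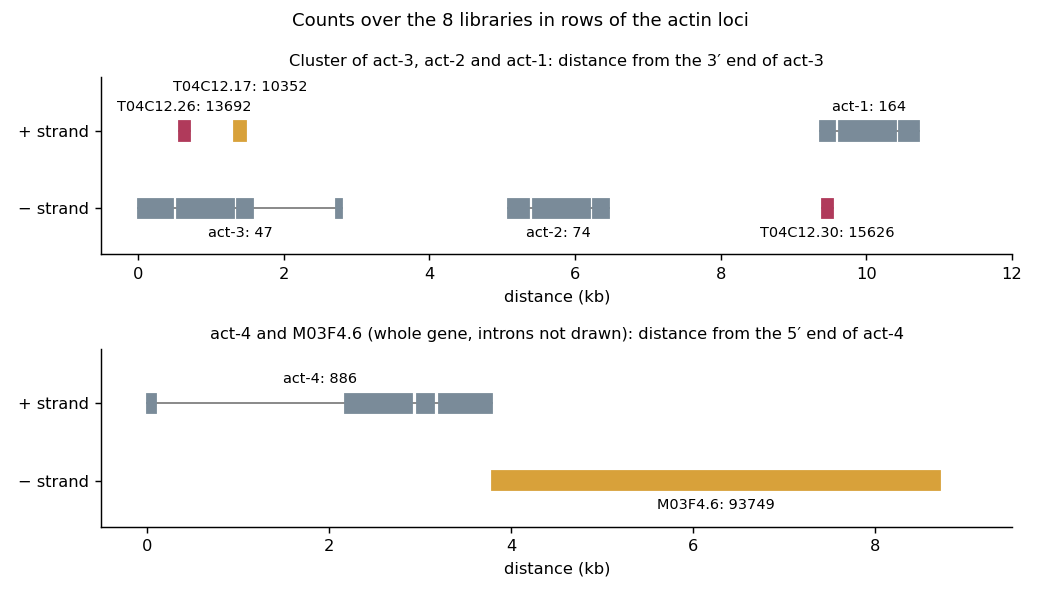
Maps of the act-3, act-2 and act-1 cluster (top, distance from the 3′ end of act-3 in kb) and of act-4 with M03F4.6 (bottom, distance from the 5′ end of act-4 in kb), drawn to scale, with each row's counts summed over the 8 libraries. Grey boxes are exons of actin genes, red boxes the nested members and yellow boxes other rows opposite them. The rows facing act-1 and act-3 held 10352 to 15626 counts each, and the rows of the 4 actin genes held 47 to 886. M03F4.6, which shares 1 exon base with act-4, held 93749.

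The rows facing act-1 and act-3 held nearly all of the counts at those genes. Over the 8 libraries T04C12.30 held 15626 counts and T04C12.26 held 13692, together 29318. The rows of the 4 actin genes held 1171, of which 886 were in act-4. All 6 rows together took 0.476% of the table's counts. T04C12.17 held 10352 counts, so the 2 rows facing act-3 held 24044 between them. M03F4.6, which shares 1 exon base with act-4, held 93749, or 1.46% of all counts, and ranked between 6 and 15 in each library. Of the rows within 5 kb of an actin gene, those that share no exon base with one on the other strand and are not actin rows held 0 to 60 counts. The library is stated to keep strand, but no source used here gives the strand setting of the counting. Which strand's transcripts these rows measure was not tested.

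Levels are compared between rows only per exon base, as mean TMM-scaled CPM (counts scaled to a common library size) for each 100 exon bases. On this scale T04C12.30 stood at 1753 and T04C12.26 at 1519, act-4 at 8.66, act-1 at 2.00, act-2 at 0.902 and act-3 at 0.492. T04C12.17 stood at 1019 and M03F4.6 at 1157. The order held in every library at 2 steps: T04C12.26 was above act-4 in 8 of 8 libraries and act-4 above act-1 in 8 of 8. The other steps did not hold throughout, since T04C12.30 was above T04C12.26 in 3 of 8 libraries, act-1 above act-2 in 6 and act-2 above act-3 in 5. The act-1, act-2 and act-3 rows each fell to 1 count in some library, so the order among them rests on few counts. In counts per exon base over all libraries, T04C12.30 exceeded its host act-1 by 803-fold and T04C12.26 exceeded act-3 by 3026-fold.

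Among 278 non-coding rows of at least 50 exon bases that lie at least 90% inside the exons of 1 coding gene on the other strand, 186 held a count. T04C12.30 ranked 4 and T04C12.26 ranked 5 by counts per exon base, at 10417 and 9128 counts for each 100 bases. The median of the 186 rows was 26.7. The rows above them face vig-1, C32D5.8 and sca-1. Members were chosen with earlier results of these data known, so these ranks may reflect that choice.

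The act-1 row was low and uneven. It held 1, 42, 27 and 13 counts in reduced replicates 1, 2, 3 and 5, and 38, 6, 27 and 10 in the oxidized ones. Reduced replicate 1 was lowest and reduced replicate 2 highest, so both ends of the range fell in 1 group. A floor of 3 counts stands between 2.80 and 4.84 CPM here, which covers counting error only, and reduced replicate 1 lay below it. Its mean was 24.96 ± 19.8 CPM in reduced libraries, against 25.7 ± 16.5 in the oxidized ones (SD, n = 4). Its log2 fold change was 0.03 (SE 0.69, 95% interval −1.38 to 1.45, edgeR adjusted p = 0.999), and the groups overlapped.

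The act-2 row held 17, 21, 2 and 2 counts in the reduced libraries and 11, 2, 1 and 18 in the oxidized ones, in the order of replicates 1, 2, 3 and 5. The act-3 row held 2, 4, 22 and 5 counts in the reduced and 8, 1, 3 and 2 in the oxidized ones. Reduced replicate 3 gave 22 of the 47 counts of act-3. Both rows fell below the floor of 3 counts in libraries of each group. They were too low for the filter and had no test in the main comparison. Mean levels of act-2 were 12.65 ± 11.5 CPM in reduced against 10.5 ± 11.7 in oxidized libraries, and those of act-3 were 11.1 ± 13.6 against 4.19 ± 2.59 (SD, n = 4). The groups overlapped for both rows.

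The act-4 row was the highest of the actin genes' own rows. It held 185, 179, 67 and 71 counts in reduced replicates 1, 2, 3 and 5, and 172, 44, 74 and 94 in the oxidized ones. Both reduced libraries of the June cohort and oxidized replicate 1 of that cohort were high, and oxidized replicate 2 was the lowest of all. Means were 156 ± 79.2 CPM for reduced against 121 ± 41.7 for oxidized libraries (SD, n = 4). The log2 fold change was −0.35 (SE 0.44, 95% interval −1.26 to 0.56, edgeR adjusted p = 0.999), and the groups overlapped. It was −0.02 without reduced replicate 1, −0.60 without both libraries of replicate 5 and −0.64 with the groups of replicate 5 exchanged.

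T04C12.30 held 4605, 1206, 1964 and 1822 counts in reduced replicates 1, 2, 3 and 5, and 1251, 1630, 1075 and 2073 in the oxidized ones. Reduced replicate 1 stood above every other library, while reduced replicate 2 lay near the lowest oxidized ones. The row took 0.557% of the counts of reduced replicate 1 (95% exact interval 0.542 to 0.574) and 0.115% of those of oxidized replicate 1 (0.109 to 0.121), so this difference between libraries exceeds counting error. The libraries were amplified by PCR and no molecular identifiers are described, so all such intervals cover counting error only. In CPM the row spanned 5.41-fold between libraries, with means of 3161 ± 2203 for reduced against 2097 ± 837 for oxidized libraries (SD, n = 4). Its log2 fold change was −0.59 (SE 0.40, 95% interval −1.42 to 0.24, edgeR adjusted p = 0.999), and −0.02 without reduced replicate 1. Without both libraries of replicate 5 it was −0.95, and with their groups exchanged −0.84.

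T04C12.26 held 2650, 1269, 1825 and 1912 counts in the reduced libraries and 1426, 2012, 1083 and 1515 in the oxidized ones, in the same order. Its highest library was again reduced replicate 1, at 3639 CPM, and its lowest were reduced replicate 2 and oxidized replicate 1, at 1324 and 1332. Means were 2485 ± 949.5 CPM for reduced against 2071 ± 692 for oxidized libraries (SD, n = 4). The log2 fold change was −0.26 (SE 0.34, 95% interval −0.97 to 0.44, edgeR adjusted p = 0.999), and −0.04 without reduced replicate 1. The groups overlapped for both nested rows.

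**Figure D2:**
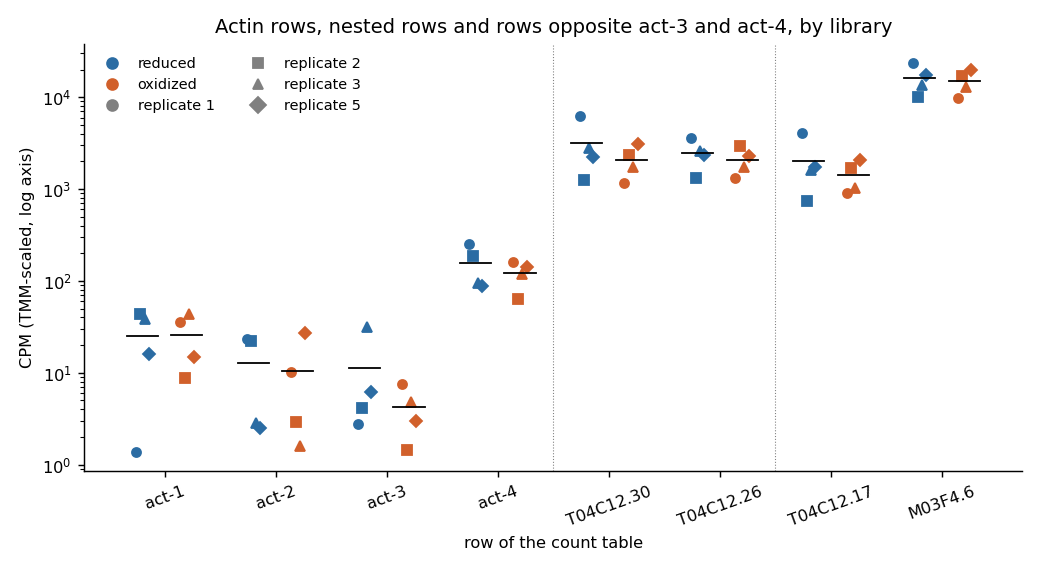
Level of each row in each library as TMM-scaled CPM on a log axis, with reduced libraries in blue, oxidized in orange and a black line at each group's mean (n = 4). Marker shapes give the replicate number. The groups overlap in all 8 rows, and T04C12.30 reaches 6323 CPM in reduced replicate 1 against 1168 in oxidized replicate 1.

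Of the 6 members, 4 were tested and 0 were called between the redox groups by edgeR's quasi-likelihood test at an adjusted p under 0.05. Over all 2315 rows tested, 0.216% were called in either direction. At an unadjusted p under 0.05 the members called were again 0 of 4, against 5.27% of all rows, and DESeq2 and limma voom also called 0. With the replicate number as a block the members called were 0 of 4, where 0.648% of all rows were called. The groups overlapped in all 6 members, while they did not overlap in 3.02% of the rows tested. The intervals above allow changes of more than 1 log2 unit downwards for act-1, act-4 and T04C12.30 and upwards for act-1, so the data do not show that the groups are alike. Of the 4 log2 fold changes, 3 lay below 0, as did 54.2% of all rows tested. T04C12.17 had −0.51 (SE 0.40) and M03F4.6 −0.10 (SE 0.32), both with an edgeR adjusted p of 0.999.

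**Figure D3:**
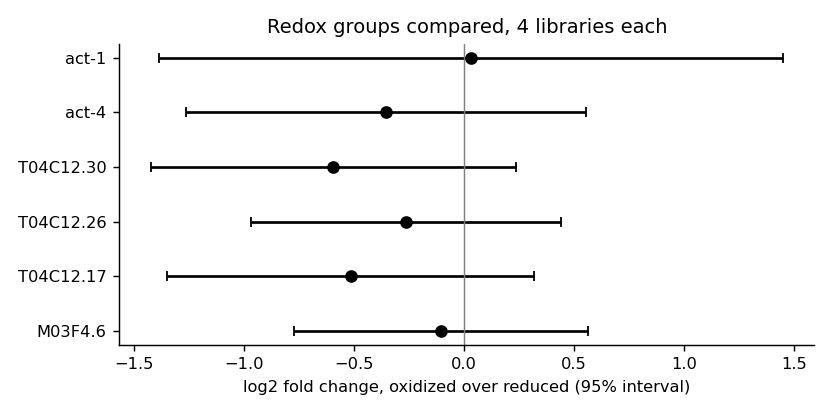
Log2 fold change, oxidized over reduced, for the 4 tested members and the rows T04C12.17 and M03F4.6, with 95% intervals from the edgeR fit (n = 4 libraries per group). Every interval holds 0; that of act-1 is the widest, from −1.38 to 1.45.

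The titles place replicates 1 and 2 in June, replicate 3 in July and replicate 5 in August, so each cohort holds at most 2 libraries per group. In the replicate 1 pair, T04C12.30 was lower in the oxidized library by 2.44 on the log2 scale, as was T04C12.26 by 1.45. In the replicate 2 pair, of the same cohort, they were higher in the oxidized library, by 0.92 and 1.15. In July the differences were −0.69 and −0.58, and in August 0.46 and −0.06. The direction thus turned within the June cohort. T04C12.30 was higher in the oxidized library in 2 of 4 pairs and T04C12.26 in 1 of 4. The act-4 row differed by −0.66 and −1.53 in June, 0.32 in July and 0.67 in August. In replicates 3 and 5 a further tag in the titles, of unknown meaning, also differs between the groups and cannot be told apart from them.

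As a share of each library's counts, the 6 rows ranged from 0.267% in oxidized replicate 1 to 0.903% in reduced replicate 1. The mean was 0.549% ± 0.252 for reduced against 0.421% ± 0.133 for oxidized libraries (SD, n = 4), a difference of −0.129 percentage points. A two-sided exact permutation test gave p = 0.486, and without reduced replicate 1 the difference was −0.0109 points. It was −0.204 points without both libraries of replicate 5 and −0.177 with their groups exchanged. The smallest p that 70 relabellings allow is 0.0286.

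The nested rows kept similar proportions in most libraries. Of the summed counts of T04C12.30 and T04C12.26, T04C12.30 made up 63.5% in reduced replicate 1 (95% exact interval 62.4 to 64.6) and 57.8% in oxidized replicate 5 (56.1 to 59.4). In the other 6 libraries its share lay between 44.8% in oxidized replicate 2 and 51.8% in reduced replicate 3. The intervals of reduced replicate 1 and oxidized replicate 5 lie above those of the others. Of the counts of T04C12.17 and T04C12.26, which face the same gene, T04C12.17 made up 35.7% to 52.8%, highest in reduced replicate 1 and next in oxidized replicate 5. The 2 rows opposite act-3 thus did not keep 1 proportion across libraries.

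The part of the counts that lay in the host row varied more. Of the summed counts of act-1 and T04C12.30, act-1 made up 0.0217% in reduced replicate 1 (95% exact interval 0.00055 to 0.121) and 3.37% in reduced replicate 2 (2.44 to 4.52). Oxidized replicates 1 and 3 were also high, at 2.95% and 2.45%, and oxidized replicates 2 and 5 low, at 0.367% and 0.480%. For act-3 and T04C12.26 the host made up 0.0497% to 0.558% in 7 libraries and 1.19% in reduced replicate 3. The log2 ratio of T04C12.30 to act-1, with 0.5 counts added to each, was 7.41 ± 2.93 for reduced against 6.48 ± 1.54 for oxidized libraries (SD, n = 4; exact permutation p = 0.686), a difference that turned to 0.46 without reduced replicate 1. That of T04C12.26 to act-3 was 8.24 ± 1.52 and 8.82 ± 1.29 (exact permutation p = 0.543), and its difference of 0.58 turned to −0.0528 without reduced replicate 3 and was 0.18 with the groups of replicate 5 exchanged. Both had an adjusted p of 0.686 over the 2 ratios.

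**Figure D4:**
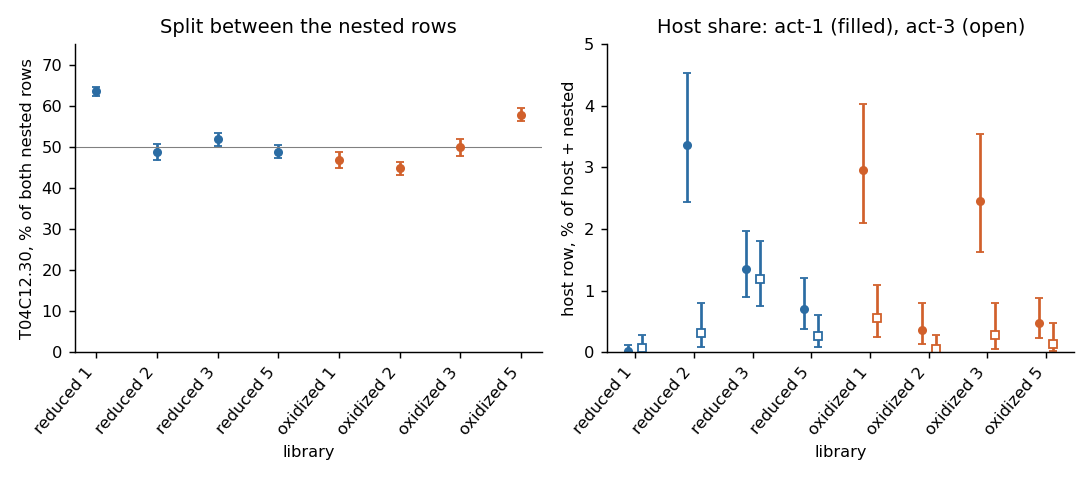
Left, T04C12.30 as a percentage of the counts of both nested rows in each library. Right, the host row as a percentage of host and nested counts, with filled circles for act-1 and open squares for act-3. Bars are 95% exact binomial intervals, blue marks reduced and orange oxidized libraries; the act-1 share runs from 0.0217% to 3.37%, both in reduced libraries.

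Across the 8 libraries the nested rows rose and fell together and the act-1 row ran against them. On log2(CPM + 1), T04C12.30 and T04C12.26 had Pearson's r = 0.92 (exact permutation p = 0.00104, adjusted p = 0.00625) and Spearman's rho = 0.81 (exact permutation p = 0.0218, adjusted p = 0.0838). Leaving out reduced replicate 1 and oxidized replicate 1, which lay farthest from the median level, gave r = 0.85. The act-1 row had r = −0.84 with T04C12.30 (exact permutation p = 0.0112, adjusted p = 0.0252; rho = −0.69, exact permutation p = 0.0694, adjusted p = 0.139). With T04C12.26 it had r = −0.80 (exact permutation p = 0.0126, adjusted p = 0.0252; rho = −0.79, exact permutation p = 0.0279, adjusted p = 0.0838). Without reduced replicate 1 and oxidized replicate 2 these became −0.61 and −0.56, so the inverse relation leans on those libraries. Nor was it limited to the nested rows, since M03F4.6 on chromosome X had r = −0.85 with act-1. Adjustment was over the 6 pairs of tested members, and no rank correlation passed it.

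The act-4 row showed no such relation. It had r = 0.17 with T04C12.30, −0.19 with T04C12.26 and −0.24 with act-1, with exact permutation p from 0.576 to 0.693 and adjusted p of 0.693 for each. The rank correlations were 0, −0.29 and 0.07, with exact permutation p of 1, 0.501 and 0.882, and adjusted p of 1, 0.751 and 1. Without oxidized replicate 2 and reduced replicate 1 the first 2 values became −0.65 and −0.84. Without reduced replicate 1 and oxidized replicate 2 that with act-1 became 0.34, so all 3 values rest on those libraries. All rows of a library share its depth and scaling, and so are not measured apart from each other. Rows within actin coding exons may also share reads that map to several actin genes, which was not tested.

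**Figure D5:**
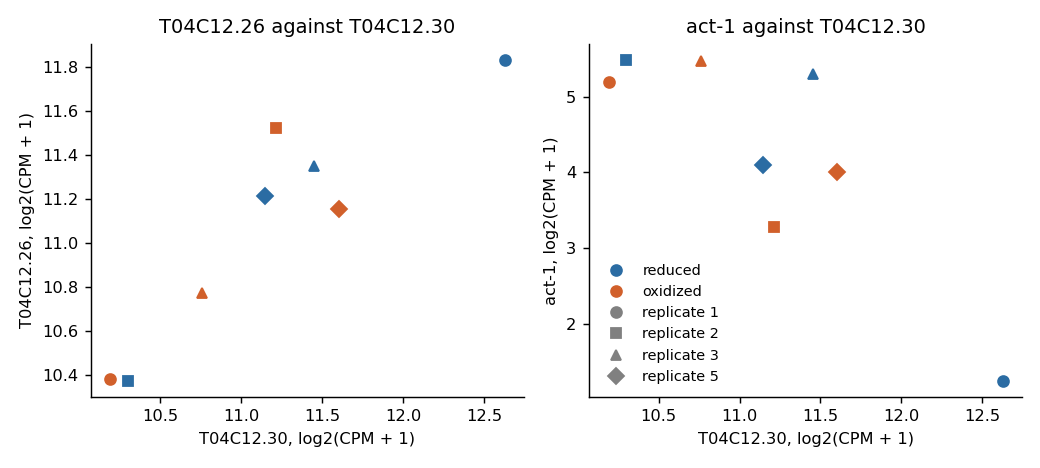
Level of T04C12.26 (left) and act-1 (right) against T04C12.30 in the 8 libraries, each as log2(CPM + 1), with colours for the redox groups and marker shapes for the replicate number. T04C12.26 follows T04C12.30 (r = 0.92) and act-1 runs against it (r = −0.84), with reduced replicate 1 at the far end of both.

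The rows most like each tested member were found among 1831 other tested rows with a mean of at least 20 CPM, by Pearson's r on log2(CPM + 1) over the 8 libraries, as a description. The rows nearest to act-4 were ketn-1 (r = 0.97), which encodes a kettin-like protein of the sarcomere, alh-8, an aldehyde dehydrogenase (0.96), and lev-11, the tropomyosin that lies along thin filaments (0.96). Next came eat-6, the sodium pump's alpha subunit, and hmg-1.1, a chromatin protein, both at 0.94. The lev-11 row ranged from 87.5 to 376 CPM between libraries and ketn-1 from 4.37 to 104. Of these rows, ketn-1 faces the coding gene F54E2.2 and alh-8 faces F13D12.8.

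T04C12.30 had a different neighbourhood, led by T04C12.17 opposite act-3 (r = 0.97). It was followed by Y24D9A.11 (0.96), a non-coding row facing the ribosomal protein gene rpl-7A, and K11D9.5 (0.95), facing the calcium pump gene sca-1. Then came nuo-5, a subunit of respiratory complex I (0.94), and ctsa-1.2 (0.94), which faces the G protein beta gene gpb-1. T04C12.26 was most like F56D12.10 (0.97), which faces vig-1, a component of the RNA-induced silencing complex. After it came lelo-2 (0.95), ZK1005.2 facing tank-1 (0.94), F44B9.5 (0.92) and T04C12.17 (0.92). M03F4.6, which meets act-4 at its end, had r = 0.91 with T04C12.30, 0.89 with T04C12.26, −0.03 with act-4 and −0.85 with act-1. The act-1 row was most like rig-6, a contactin-family gene (0.95), followed by ndub-8 (0.93), dhs-20 (0.92), aly-2 and calu-2 (both 0.91). It ran against T04C12.17 (−0.90). Here rig-6 faces C33F10.14 and dhs-20 faces F35B12.9. With 8 libraries and 1831 rows, high values of r arise among many rows.

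Genes that act with actin were read from 7 lists, from their own rows and from rows facing them. Of their 47 own rows tested and 6 facing rows tested, 0 were called in either direction by edgeR, and DESeq2, limma voom and the replicate block also called 0. Over all rows tested, edgeR called 0.216% and the block 0.648%. At an unadjusted p under 0.05 there was 1 of these rows, the myosin row named below, against 5.27% of all rows. Several of these genes also stand among the muscle markers below. Of the thin filament list, 11 of 14 own rows were tested and all 11 lay below 0, with a median log2 fold change of −0.43 against −0.05 over all rows tested. Its members with the most counts were tni-1, a troponin I (−0.11, SE 0.44), clik-1, a calponin-like protein (−0.39, SE 0.44), and tnt-2, a troponin T (−0.85, SE 0.42, edgeR adjusted p = 0.944). At clik-1 the facing row T25F10.1 held 30159 counts against 1417 in the own row, and had −0.21 (SE 0.30). Of the myosins, 11 of 20 were tested and 8 lay below 0, with a median of −0.50. The light chain genes mlc-2 and mlc-1, which regulate muscle myosin, had −0.27 (SE 0.37) and −0.50 (SE 0.40). The heavy chain unc-54 had −0.76 (SE 0.43) and myo-3 had −1.32 (SE 0.60, unadjusted p under 0.05, edgeR adjusted p = 0.915).

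The act-5 row, the intestinal actin, held 521 counts, and had −0.49 (SE 0.49, edgeR adjusted p = 0.999). It was the 1 tested row of 6 in the list of other actins and actin-related proteins. In that list arp-6 held 0 counts, arp-1 and arp-11 of the dynactin complex held 25 each, and the Arp2/3 subunits arx-1 and arx-2, which start branched filaments, held 8 and 4. Of 27 rows for assembly and turnover, 4 were tested, with 3 above 0 and a median of 0.20. They were cap-2, a capping protein (0.00, SE 0.39), inft-2 (0.39, SE 0.62) and fhod-1 (0.46, SE 0.67), both formin-family genes, and arx-7 (−0.46, SE 0.69). Of 18 crosslinkers and anchors, 10 were tested, 6 of them below 0, with a median of −0.16. They were led by tln-1, talin (−0.12, SE 0.36), alp-1, an Enigma-family protein (−0.38, SE 0.39), and unc-70, beta spectrin (−0.57, SE 0.69). Of the CCT chaperonin and prefoldin genes, which fold actin and tubulin, 5 of 14 were tested and all 5 lay below 0, with a median of −0.70. The cct-5 row had −0.70 (SE 0.63), pfd-4 −1.36 (SE 0.73) and cct-3 −0.66 (SE 0.69). Of 16 tubulin rows 5 were tested, all below 0, with a median of −0.14. They included tbg-1 (−0.11, SE 0.34), tbb-2 (−0.14, SE 0.47) and tba-2 (−0.25, SE 0.54).

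No marker of the tissues checked passed the threshold in the main comparison. Values here are from the markers' own rows unless facing rows are named. Of 11 body wall muscle rows, all tested, 10 lay below 0, with a median log2 fold change of −0.63 and a summed level of 1804 to 4921 CPM in reduced and 1649 to 3565 in oxidized libraries. Pharynx markers ranged over 200 to 729 CPM in reduced and 194 to 371 in oxidized libraries, with 3 of 3 tested rows below 0. Intestine markers ranged over 145 to 729 and 249 to 432 CPM, with 3 of 6 below 0 and vit-6, a yolk protein, at 0 counts. Hypodermis markers ranged over 6159 to 24665 and 13364 to 29687 CPM, with 4 of 5 tested rows above 0 and a median of 1.17. Of these 5, 4 had an unadjusted p under 0.05, against 5.27% of all rows. Among these 4, col-12 lay below 0 (−0.65, SE 0.31) and the rest above. With the replicate block 1 of the 5 was called, against 0.648% of all rows. Neuron markers ranged over 107 to 206 and 126 to 195 CPM, with 3 of 5 below 0. Germline markers ranged over 7.45 to 44.9 and 2.80 to 23.3 CPM, with htp-1, gld-1 and puf-8 at 0 counts and none tested. Rows facing the markers held 12772 counts for body wall muscle and 986 for neurons, against 18422 and 1034 in the own rows. For muscle these came from 3 facing rows, mostly C36E6.2 (7457 counts, 1880 exon bases) and ZK829.9 (5311 counts, 2044 exon bases). For neurons they came from 5, mostly grl-14 (714 counts, 1521 exon bases). A facing row needs to share only 20 exon bases with a marker, so these counts need not lie opposite it. For hypodermis the facing rows held 9 against 99735 and for pharynx 16 against 2044. The 1 row facing a germline marker held 0, and no row faced an intestine marker. Which strand's transcripts the own rows measure, and the part of tissue makeup in the actin values, were not tested.

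Per library the table held 635990 to 1089259 counts. No 2 libraries were identical, and Spearman correlations between them ran from 0.69 to 0.84. The labels name biological replicates without saying how the pools were separated, so p-values measure the spread between these libraries.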

How the data were processed

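RNA of whole larvae was depleted of ribosomal RNA and made into strand-specific libraries read as 50 nt pairs, per the labels' protocols; the molecule label names polyA RNA instead. Tools listed in the submitters' processing notes are Bowtie2 2.2.1, TopHat2 2.0.13, Cuffdiff 2.1.1, Cufflinks and, for read quality, FastQC 0.11.3. No source used here gives the counter's version and strand setting, the build or the annotation. Raw counts for 45461 rows were deposited by the authors, with no normalization recorded. Another 2 value columns matched no sample and were left out.

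Rows were matched to the Ensembl WBcel235 annotation (44933 to 1 gene, 528 not, with 0.363% of counts). Groups follow the redox characteristic. After a filterByExpr filter and TMM scaling, rows were tested in edgeR 4.0.16 (quasi-likelihood, robust, legacy = FALSE) in R 4.3.3, with Benjamini-Hochberg adjustment over 2315 rows and a threshold of 0.05. DESeq2 1.42.0 and limma voom 3.58.1 were alternatives. SE is the fold change divided by the root of F. Single values were tested by exact permutation in Python 3.11.15. The fit was also run on simulated independent counts without cohort effects, which does not show its power for the changes above.

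Libraries with the same replicate number were taken as a pair. Their titles share a cohort, but all libraries of replicates 1 and 2 fall in June, so there the pairs rest on the replicate number. The pairing was used in the replicate block and in the differences within pairs. The main fit and the exact permutation tests between groups treated the libraries as unpaired. Within the pairs of replicates 1, 2, 3 and 5, deviations from group means correlated at 0.05, −0.13, 0.10 and 0.28. Members, lists and rules were chosen with earlier results of these data known. All members were named. Rows like a member were the 5 with the highest correlation, and lists were described by called members or the 3 with most counts. Of the listed names, pqn-5, tni-2, tmd-1 and inft-1 matched no row. Members named beyond the rule (myo-3, arx-1, arx-2, arp-6, arx-7 and the facing rows T25F10.1, C36E6.2, ZK829.9 and grl-14) were chosen after seeing their values.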

Additional observations from a re-analysis of the deposited data

Results flagged for a closer look

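Among 18 groups of 4 libraries that were checked, 1 group held a value far from its other values, which is about the number expected by chance (0.9). In the act-3 row reduced replicate 3 had 31.4 CPM, from 22 counts, while the other reduced libraries had 2 to 5 counts.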

How the results depend on the processing

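No member was called in any of the 23 to 24 fits made for each tested member, with adjusted p from 0.835 to 0.9995, nor were act-2 and act-3 without a filter (log2 fold changes −0.25 and −1.12). The replicate block (act-1 0.11, act-4 −0.32, T04C12.30 −0.40, T04C12.26 −0.24) changed no call of a member. Leaving out 1 library moved act-1 between −0.32 and 0.52, act-4 between −0.54 and −0.02, T04C12.30 between −0.90 and −0.02, and T04C12.26 between −0.47 and −0.04. The share difference moved between −0.209 and −0.0109 points, the T04C12.30 to act-1 difference between −1.80 and 0.46, and the T04C12.26 to act-3 difference between −0.0528 and 1.18. Without both libraries of replicate 5 the values were act-1 0.06, act-4 −0.60, T04C12.30 −0.95, T04C12.26 −0.30, share −0.204 points and ratios −1.43 and 0.51. With its groups exchanged they were 0.03, −0.64, −0.84, −0.23, −0.177 points, −1.21 and 0.18. With the block and without replicate 1 (chosen after seeing the data), act-1 was −0.62, T04C12.30 0.23 and T04C12.26 0.16, and without replicate 2 act-4 was 0.0668; the cause was not tested. Over all rows, 5 were called higher and 0 lower. The counts were 9 and 1 with no filter, 9 higher with DESeq2, 3 with limma voom, 3 with the legacy method, 0 with replicate 5 exchanged, 11 and 4 with the block, and 1 to 12 higher and 0 to 3 lower without 1 library. With the block, the higher and lower calls were 18 and 4 without replicate 1, 7 and 2 without replicate 2, 2 and 0 without replicate 3, and 3 and 0 without replicate 5.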
